A study of Mus musculus with 10 samples.

Results

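A set of 10 genes of antigen presentation and the interferon response was followed in all libraries of the series: the MHC class I heavy chains H2-D1 and H2-K1, their partner B2m, the loading factors Tap1 and Tapbp, the proteasome subunits Psmb8 and Psmb9, and the interferon-induced genes Cxcl10, Isg15 and Ifitm3. They were taken by name from a table of 24520 genes, and all 10 were found. Expression was given as RPKM, a read number scaled by transcript length and library size. The cells were V6.5, a mouse embryonic stem cell (ESC) line, and neural progenitor cells (NPCs) derived from it. The 5 groups, each of 2 libraries labelled as biological replicates, were ESCs with control siRNA, ESCs with Cbx3 siRNA, NPCs with control siRNA, NPCs with Cbx3 siRNA and NPCs with Med26 siRNA. The control siRNA targets luciferase, so every group was transfected, and no untransfected cells were compared. ESCs were kept on feeder layers of irradiated mouse embryonic fibroblasts, in medium with leukemia inhibitory factor. NPCs came from embryoid bodies kept for 4 days, were transfected on day 5 and were harvested on day 8. Knockdown lowers a transcript over days in a mixed culture and leaves the gene intact.

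MHC class I molecules show fragments of a cell's own proteins on its surface. The proteasome cuts the proteins, the TAP transporter carries the peptides into the endoplasmic reticulum, and tapasin, the product of Tapbp, helps load them onto a heavy chain paired with beta-2-microglobulin. Interferons raise the genes of this whole route, and embryonic stem cells are known for low class I levels and a weak interferon response. Cbx3 encodes HP1 gamma, a chromatin protein that binds methylated histone H3 lysine 9, and Med26 encodes a subunit of the Mediator complex.

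The targets were lowered in the libraries named for them. Cbx3 was at 9.37 and 9.65 RPKM in NPC controls and at 0.425 and 0.248 after Cbx3 siRNA, and at 14.0 and 56.4 in ESC controls against 1.01 and 1.96. Med26 was at 7.56 and 6.78 RPKM in NPC controls and at 3.04 and 3.07 after Med26 siRNA. Depth, estimated from steps in the low RPKM values, was between 23.29 and 63.8 M reads. Replicates of a group lay close together in NPCs and far apart in ESCs, where Esrrb, a naive pluripotency factor, was at 53.4 and 13.7 RPKM in the control libraries. NPC libraries kept Pou5f1, a pluripotency factor, at 380 to 497 RPKM while Nes, an intermediate filament of neural progenitors, was at 30.0 to 40.4. Esrrb was at 1.18 and 0.913 RPKM in NPC controls. Klf4, another pluripotency factor, was at 0.458 and 0.352 there, against 20.7 and 6.45 in ESC controls. Of the 7 pluripotency markers listed, 4 were called lower in NPC controls than in ESC controls and none higher, where 16.0% of all genes were called. The labelled NPCs therefore carried Pou5f1 and Nes together, with part of the pluripotency markers lower than in ESCs. In bulk RNA, fewer cells of a type and less RNA per cell cannot be told apart.

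The order of levels in NPC controls, on a per-length scale, was Ifitm3 with a mean of 31.3 RPKM, H2-K1 with 21.4, B2m with 17.2, Tapbp with 11.7, H2-D1 with 9.57, Tap1 with 5.91, Psmb9 with 5.13, Psmb8 with 4.49, Cxcl10 with 1.05 and Isg15 with 0.366. No pair of neighbours in this order overlapped in the 2 libraries. Of the 10 genes, 9 had at least 1 RPKM in at least 2 libraries and were tested among 11956 genes. Isg15 stayed under that limit.

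**Figure D1:**
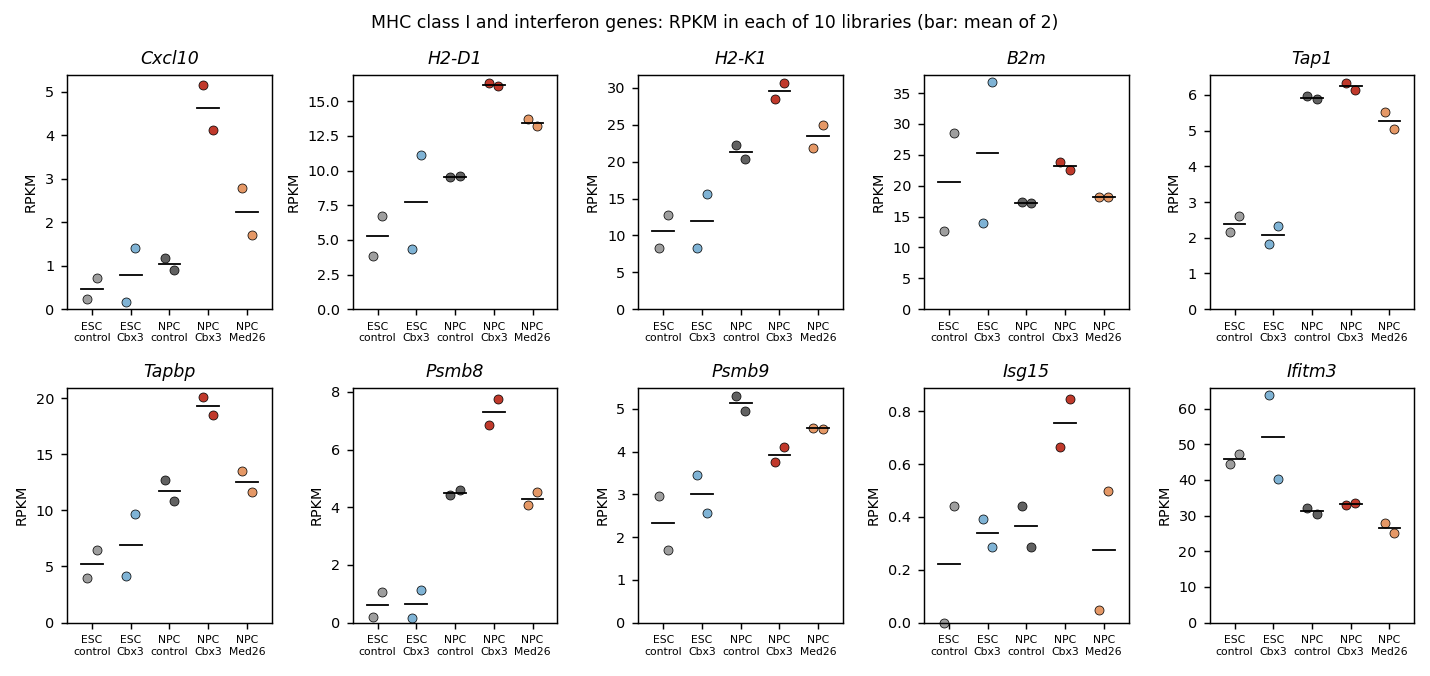
RPKM of each gene in the 10 libraries, on linear axes that start at 0; points are libraries and the bar is the mean of 2. Cxcl10, H2-D1, H2-K1, Tapbp and Psmb8 are highest in the NPC libraries with Cbx3 siRNA, while Psmb9 is lower there than in NPC controls.

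In NPCs with Cbx3 siRNA, 6 of the 9 tested genes rose and 1 fell. Cxcl10, H2-D1, Tapbp, Psmb8, H2-K1 and B2m were higher than with control siRNA, Psmb9 was lower, and Tap1 and Ifitm3 did not pass the test. Among all genes tested, 13.1% passed in this comparison, 7.8% upward and 5.33% downward. The median log2 change of the 9 genes was 0.45, and that of all genes was 0.00698. Changes are log2 differences of RPKM + 1 with their standard error, tested with limma and adjusted by Benjamini-Hochberg over all genes at 0.05. With Med26 siRNA 1 of the 9, H2-D1, passed the test, where 13.4% of all genes did. Both siRNAs were compared with the same pair of control libraries.

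**Figure D2:**
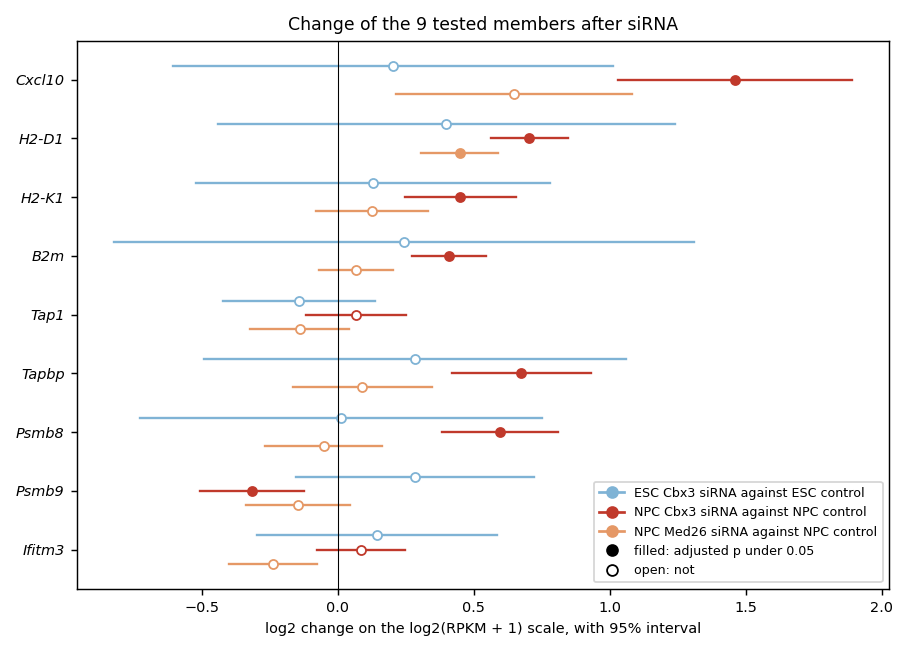
Log2 change of the 9 tested genes, on the log2(RPKM + 1) scale, after Cbx3 siRNA in NPCs and ESCs and after Med26 siRNA in NPCs; lines are 95% intervals, and filled points have an adjusted p under 0.05. The intervals in ESCs are wide and all span 0, while 6 genes lie above 0 and Psmb9 lies below it after Cbx3 siRNA in NPCs.

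H2-D1 and H2-K1 encode the heavy chains, which hold the peptide and contact the T cell receptor. Their upstream sequences are shown because the genes moved in the same direction and the stretches are close copies. The windows are from RefSeq, build GRCm38.p6, chr17:35262913-35263008 on the plus strand for H2-D1 and chr17:34000373-34000468 on the minus strand for H2-K1, read on each gene's own strand. Capitals mark the kappaB-like motif GGGANTNNCC, which matched on both strands with a shift of 1 base, and then TGACGC, a CRE-like motif.
H2-D1: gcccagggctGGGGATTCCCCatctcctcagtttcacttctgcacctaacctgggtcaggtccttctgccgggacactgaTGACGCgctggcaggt
H2-K1: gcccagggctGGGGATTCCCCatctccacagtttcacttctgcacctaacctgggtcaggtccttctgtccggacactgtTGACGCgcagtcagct
The windows were identical at 89 of 96 bases, or 92.7%. The kappaB-like match begins 171 bases before the RefSeq start of H2-D1 and 111 bases before the first of the 2 starts listed for H2-K1. The shares of all promoters were taken over longer windows, from 250 bases before to 50 after each start. Among 32851 such RefSeq windows, 4.16% held the kappaB-like motif on either strand and 7.4% held TGACGC. A match describes the letters and does not show that a factor binds there.

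H2-D1 was at 9.54 and 9.59 RPKM in NPC controls, at 16.3 and 16.1 with Cbx3 siRNA and at 13.7 and 13.2 with Med26 siRNA. These 3 groups did not overlap, with controls lowest and Cbx3 siRNA highest. The log2 change was 0.70 ± 0.059 (SE, adjusted p = 0.00212) for Cbx3 siRNA and 0.45 ± 0.059 (adjusted p = 0.00853) for Med26 siRNA. The Med26 siRNA call was lost when any 1 of the 4 libraries compared was left out (adjusted p 0.0506 to 0.0715). Between the siRNAs, H2-D1 was higher with Cbx3 siRNA by 0.26 ± 0.059 (adjusted p = 0.0311), a call lost with each of the 6 NPC libraries left out (adjusted p 0.0519 to 0.146).

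H2-K1 was the more abundant heavy chain in every library, at 1.4 to 2.34 times the RPKM of H2-D1. It was at 22.3 and 20.4 RPKM in NPC controls, 28.5 and 30.7 with Cbx3 siRNA and 21.9 and 25.0 with Med26 siRNA. The Cbx3 siRNA libraries lay above the other NPC libraries, and the Med26 siRNA libraries overlapped the controls. The log2 change with Cbx3 siRNA was 0.45 ± 0.085 (adjusted p = 0.0217), and this call was lost when any 1 of the 4 libraries compared was left out (adjusted p 0.0642 to 0.107). With Med26 siRNA the difference was 0.13, with a 95% interval of -0.079 to 0.33. Class I genes are close relatives, and no source used here gives how reads with several matches were counted, so reads of H2-D1, H2-K1 and their relatives can be shared.

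B2m encodes beta-2-microglobulin, the invariant partner that every classical heavy chain needs to reach the surface. In its promoter the interferon-stimulated response element motif GAAANNGAAA and the kappaB-like motif, here on the opposite strand, lie 3 bases apart. The window is RefSeq GRCm38.p6 chr2:122147538-122147580, plus strand, and capitals mark both matches, of which the first begins 139 bases before the start.
B2m: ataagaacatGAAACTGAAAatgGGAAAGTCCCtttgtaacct
The response element motif was present in 3.44% of all promoter windows. B2m was at 17.3 and 17.2 RPKM in NPC controls, 23.9 and 22.5 with Cbx3 siRNA and 18.1 and 18.2 with Med26 siRNA. The Cbx3 siRNA libraries stood above both other groups. B2m rose by 0.41 ± 0.057 on the log2 scale with Cbx3 siRNA (adjusted p = 0.00901; 0.0524 to 0.0594 without either control library or Cbx3 siRNA replicate 1), and differed by 0.067 with Med26 siRNA (95% interval -0.070 to 0.20). In ESCs, B2m was at 12.6 and 28.6 RPKM with control siRNA and 13.9 and 36.8 with Cbx3 siRNA, so the replicates of 1 treatment differed more than the treatments.

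Tapbp passed the test with Cbx3 siRNA in NPCs, and Tap1, which forms the peptide transporter together with Tap2, did not. The difference between their changes was not tested. Tapbp was at 12.7 and 10.8 RPKM in NPC controls, 20.1 and 18.5 with Cbx3 siRNA and 13.5 and 11.6 with Med26 siRNA. Tapbp was higher in both Cbx3 siRNA libraries than in the other 4 NPC libraries, and rose by 0.67 ± 0.11 (adjusted p = 0.0123; 0.0638 without control replicate 2 and 0.0671 without Cbx3 siRNA replicate 1). Tap1 was at 5.96 and 5.87 RPKM in controls, 6.34 and 6.13 with Cbx3 siRNA and 5.52 and 5.03 with Med26 siRNA. The groups of Tap1 did not overlap, but its differences of 0.066 (95% interval -0.12 to 0.25) and -0.14 (95% interval -0.32 to 0.042) did not pass the test. Tap2 was at 2.07 and 2.28 RPKM in controls and 2.70 and 2.62 with Cbx3 siRNA, a difference of 0.21 ± 0.13 (adjusted p = 0.339).

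Psmb8 and Psmb9 encode catalytic subunits that replace Psmb5 and Psmb6 in the immunoproteasome, the form that interferon gamma induces. Psmb8 was at 4.41 and 4.58 RPKM in NPC controls, 6.85 and 7.76 with Cbx3 siRNA and 4.09 and 4.51 with Med26 siRNA. Its Cbx3 siRNA libraries were the highest in the series, and those of Med26 siRNA overlapped the controls. Psmb8 rose by 0.59 ± 0.089 with Cbx3 siRNA (adjusted p = 0.0107; 0.0567 to 0.0679 without either control library or Cbx3 siRNA replicate 2). Psmb9 ran the other way, at 5.31 and 4.96 RPKM in controls, 3.75 and 4.10 with Cbx3 siRNA and 4.55 and 4.53 with Med26 siRNA. Its groups did not overlap, with controls highest. Psmb9 fell by 0.32 on the log2 scale (SE 0.079, adjusted p = 0.049), close to the threshold, and the call was lost with each of the 6 NPC libraries left out (adjusted p 0.0917 to 0.199).

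The ratio of Psmb8 to Psmb9 RPKM, computed within each library, was 0.831 and 0.923 in NPC controls, 1.83 and 1.89 with Cbx3 siRNA and 0.898 and 0.996 with Med26 siRNA. Only in the NPC libraries with Cbx3 siRNA, of all 10, was Psmb8 the more abundant of the pair. Against Psmb5, the constitutive subunit it replaces, Psmb8 stood at 0.0520 and 0.0486 in controls and at 0.0925 and 0.0888 with Cbx3 siRNA. The constitutive subunits remained far more abundant throughout. Psmb10, the remaining inducible subunit, was at 35.4 and 35.1 RPKM in NPC controls, 35.5 and 38.6 with Cbx3 siRNA and 24.8 and 27.5 with Med26 siRNA. Psmb10 thus fell with Med26 siRNA, by 0.42 on the log2 scale (SE 0.072, adjusted p = 0.018), and differed by 0.068 with Cbx3 siRNA (adjusted p = 0.578).

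**Figure D3:**
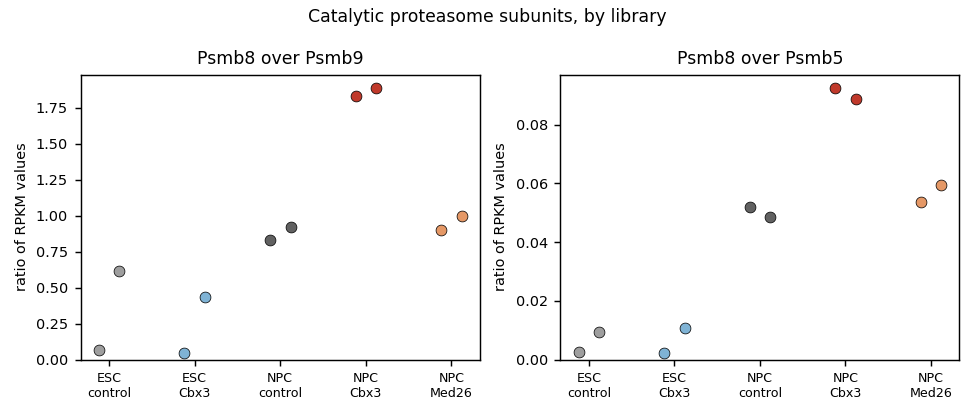
Ratio of Psmb8 to Psmb9 and of Psmb8 to Psmb5 in each library, from RPKM values on linear axes that start at 0; each point is 1 library. The 2 NPC libraries with Cbx3 siRNA, at 1.83 and 1.89 for the first ratio, lie above the other 8 in both panels.

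Tap1 and Psmb9, neither of which rose with Cbx3 siRNA, are transcribed away from each other from starts separated by 225 bases. This interval is shown whole, from RefSeq GRCm38.p6, chr17:34187331-34187555, on the plus strand, which is that of Tap1. Capitals mark a CCAAT box, the only match in it to any of the 5 motifs searched.
Tap1-Psmb9: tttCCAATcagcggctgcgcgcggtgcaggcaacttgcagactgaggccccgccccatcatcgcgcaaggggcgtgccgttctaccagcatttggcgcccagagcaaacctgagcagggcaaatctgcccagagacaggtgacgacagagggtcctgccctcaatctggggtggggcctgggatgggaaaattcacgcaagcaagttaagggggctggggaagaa
Psmb8 held 1 match of the gamma-activated site TTCNNNGAA, which reads the same on both strands and was found in 8.3% of promoter windows. It is shown in RefSeq GRCm38.p6 chr17:34198088-34198116, plus strand, and begins 97 bases before the start.
Psmb8: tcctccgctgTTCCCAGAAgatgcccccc
In Tapbp, CCAAT on the opposite strand was the one motif found, and 37.4% of promoter windows hold CCAAT. The absence of a motif says only that these letters are not in this window.

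**Figure D4:**
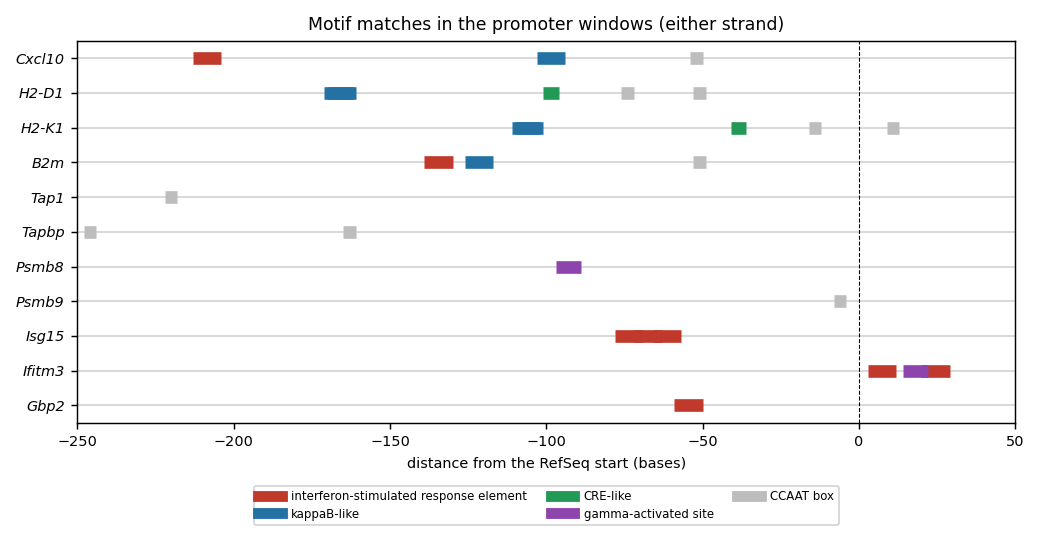
Positions of matches to 5 motifs, on either strand, in the RefSeq windows from 250 bases before to 50 after the start of each gene, for H2-K1 at the first of 2 listed starts. Cxcl10 and B2m hold both the response element and the kappaB-like motif, the heavy chains hold the kappaB-like and CRE-like motifs, and Tap1, Tapbp and Psmb9 hold CCAAT alone.

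Cxcl10, a chemokine that draws activated T cells and is named for its induction by interferon gamma, showed the largest change of the 9 genes. Its promoter is shown for its response element and kappaB-like matches, which begin 213 and 103 bases before the start, in RefSeq GRCm38.p6 chr5:92348973-92349112, minus strand.
Cxcl10: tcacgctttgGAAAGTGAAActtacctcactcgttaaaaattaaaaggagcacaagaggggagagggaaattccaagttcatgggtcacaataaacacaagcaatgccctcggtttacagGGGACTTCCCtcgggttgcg
Cxcl10 was at 1.18 and 0.909 RPKM in NPC controls, 5.15 and 4.13 with Cbx3 siRNA and 2.79 and 1.70 with Med26 siRNA. The 3 groups did not overlap and stood in the same order as for H2-D1. Estimated from depth and length, the control values rest on 69.7 and 54.7 reads and those with Cbx3 siRNA on 257.7 and 212.0. The mean RPKM with Cbx3 siRNA was 4.44 times that of controls, and the log2 change was 1.46 ± 0.18 (adjusted p = 0.00625). With Med26 siRNA the change was 0.65 ± 0.18 (adjusted p = 0.0631) and did not pass, though it did with median scaling (adjusted p = 0.0386). Cxcl10 was higher with Cbx3 than with Med26 siRNA by 0.81 ± 0.18 (adjusted p = 0.0277). This call was lost without any 1 NPC library other than Med26 siRNA replicate 1 (adjusted p 0.0501 to 0.109), and with no filter on low values (0.113). Its relatives Cxcl9 and Cxcl11 were near or at the floor: Cxcl9 was listed at 0 in all 10 libraries and Cxcl11 reached 0.692 RPKM.

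Isg15, a ubiquitin-like protein that type I interferon induces strongly, had 3 overlapping response element matches just before its start, shown in RefSeq GRCm38.p6 chr4:156200865-156200906, minus strand.
Isg15: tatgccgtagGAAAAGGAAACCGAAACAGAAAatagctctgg
Its level was low everywhere, at 0.443 and 0.288 RPKM in NPC controls, 0.666 and 0.847 with Cbx3 siRNA and 0.0483 and 0.498 with Med26 siRNA. The Cbx3 siRNA libraries were the highest of the series, from an estimated 23 and 30 reads. In a fit without the filter on low values, the difference from controls was 0.36 on the log2(RPKM + 1) scale, with an adjusted p of 0.388. In ESCs it was listed at 0 and at 0.44 RPKM with control siRNA and at 0.394 and 0.285 with Cbx3 siRNA.

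Ifitm3, a membrane protein that restricts virus entry, was the most abundant member in NPC controls. It was at 32.1 and 30.5 RPKM there, 33.0 and 33.6 with Cbx3 siRNA and 27.8 and 25.1 with Med26 siRNA. The Med26 siRNA libraries were the lowest, and those with Cbx3 siRNA stood just above controls. Neither difference from controls passed, at 0.085 (95% interval -0.076 to 0.25) for Cbx3 siRNA and -0.24 ± 0.067 (adjusted p = 0.0639) for Med26 siRNA. Between the siRNAs Ifitm3 was higher with Cbx3 siRNA by 0.32 ± 0.067 (adjusted p = 0.0229). Its response element matches lie after the start and are not shown. Ifitm2, its close paralog, fell with Cbx3 siRNA by 0.50 on the log2 scale (adjusted p = 0.00426), and the family can share reads.

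Compared directly, 7 of the 9 genes were higher with Cbx3 than with Med26 siRNA in NPCs and none was lower, where 10.4% of all genes were higher. These were Cxcl10, H2-D1, H2-K1, B2m, Tapbp, Psmb8 and Ifitm3. Psmb8 differed by 0.65 ± 0.089 (adjusted p = 0.00705), Tapbp by 0.58 ± 0.11 (adjusted p = 0.0155) and B2m by 0.34 ± 0.057 (adjusted p = 0.0119). Tap1 and Psmb9 did not pass, with adjusted p of 0.111 and 0.183. Leaving out 1 library left between 1 and 4 of the 7 calls, the lowest without Cbx3 siRNA replicate 1 or Med26 siRNA replicate 2.

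The calls for Cbx3 siRNA against control in NPCs rest on the close NPC replicates. H2-D1 and Cxcl10 kept their call with each of the 6 NPC libraries left out. Leaving out NPC control replicate 1 or 2 or Cbx3 siRNA replicate 1 or 2 left 3, 2, 3 and 4 of the 7 calls. Without the filter on low values H2-D1, B2m and Psmb8 passed and Cxcl10 did not (adjusted p = 0.051). When all 10 libraries shared 1 spread, none of the 9 passed (Cxcl10 adjusted p = 0.189, H2-D1 0.547), and 1 gene of all those tested did.

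Markers of other cells moved in part with these genes. Of 13 immune cell markers, 12 were under 1 RPKM in every library, and Itgax and Tyrobp were listed at 0 in all of them. The remaining one, Cd68, a lysosomal protein, was at 2.3 and 2.1 RPKM in NPC controls and at 3.46 and 3.18 with Cbx3 siRNA. The summed immune list was 2.63 and 2.61 RPKM in controls, 4.10 and 4.05 with Cbx3 siRNA and 2.48 and 2.14 with Med26 siRNA. Fibroblast feeder markers summed to 14.4 and 12.1, to 16.5 and 15.0 and to 12.8 and 11.2 RPKM in the same groups, with 2 of 7 tested higher and 1 lower after Cbx3 siRNA. Trophoblast markers summed to 9.13 and 8.52 RPKM in controls, 16.6 and 17.3 with Cbx3 siRNA and 12.3 and 11.6 with Med26 siRNA. Of these 10 markers, 5 were under 1 RPKM in every library, and 2 of the 4 tested rose with Cbx3 siRNA. Neural progenitor markers summed to 54.3 and 51.0 RPKM in controls, 41.0 and 41.8 with Cbx3 siRNA and 60.6 and 60.9 with Med26 siRNA. Here 4 of 8 markers were under 1 RPKM in every library. Of the 4 tested, 3 fell with Cbx3 siRNA and none was called with Med26 siRNA. Among all genes tested, 7.8% rose and 5.33% fell with Cbx3 siRNA. The part of these cells in the changes of the 10 genes was not tested.

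In ESCs, Cbx3 siRNA gave no call among the 9 genes, where 0% of all genes passed (645 had an unadjusted p under 0.05). Cbx3 itself did not pass there (log2 change -3.59, adjusted p = 0.291), so the test missed the target of the siRNA. Cxcl10 was at 0.231 and 0.719 RPKM with control siRNA and at 0.162 and 1.41 with Cbx3 siRNA. H2-D1 was at 3.81 and 6.71 against 4.32 and 11.1, and Psmb8 at 0.191 and 1.05 against 0.170 and 1.13. In each of these, and in B2m, Tapbp and H2-K1, replicate 2 was above replicate 1 in both groups, and the groups overlapped. Psmb9 ran the other way, at 2.95 and 1.70 RPKM with control siRNA and 3.44 and 2.56 with Cbx3 siRNA. Tap1 was at 2.17 and 2.61 against 1.82 and 2.33, and Ifitm3 at 44.6 and 47.3 against 63.9 and 40.4. The 95% interval of the H2-D1 change was -0.44 to 1.24, which holds the value seen in NPCs, so these libraries do not show that ESCs lack the change. Feeder markers summed to 57.2 to 79.1 RPKM in ESC libraries and 11.2 to 16.5 in NPC libraries.

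The difference between the Cbx3 siRNA effect in NPCs and in ESCs was tested directly. None of the 9 genes passed, where 0% of all genes passed and 233 had an unadjusted p under 0.05. The largest difference was that of Cxcl10, at 1.26 ± 0.49 (unadjusted p = 0.0353, adjusted p = 1). Psmb9 differed by -0.60 (95% interval -1.22 to 0.018).

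Between control cells, 3 of the 9 genes were higher in NPCs than in ESCs and none was lower, where 10.1% of all genes were higher. Psmb8, at 0.191 and 1.05 RPKM in ESCs and 4.41 and 4.58 in NPCs, was higher by 1.81 ± 0.32 (adjusted p = 0.0117). Tap1 was higher by 1.03 ± 0.12 (adjusted p = 0.00335) and Psmb9 by 0.91 ± 0.19 (adjusted p = 0.0193). H2-K1, at 8.30 and 12.8 RPKM in ESCs against 22.3 and 20.4 in NPCs, did not overlap but had an adjusted p of 0.0519. Tapbp, at 3.93 and 6.48 against 12.7 and 10.8, had one of 0.068. B2m overlapped, with 12.6 and 28.6 RPKM in ESCs around the 17.3 and 17.2 of NPCs, and Ifitm3 was lower in both NPC libraries (adjusted p = 0.0928). The calls of Psmb8 and Psmb9 were lost without either NPC control library, and without either ESC Cbx3 siRNA library, which enters only through the spread, 7 of the 9 passed. Without ESC control replicate 2, 5 passed.

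Other genes of the route were followed in lists, and their counts are set beside the shares of all genes tested. The 20 further class I heavy chain genes gave 10 that were tested. Of these, H2-Q2 and Cd1d1 reached the filter only through Cbx3 siRNA libraries, and neither was called. Of the other 8, H2-M3, a nonclassical chain that presents formylated peptides, rose with Cbx3 siRNA in NPCs (0.48 ± 0.12, adjusted p = 0.0456). None of the 10 fell. Of 8 tested genes of peptide loading, Cd74, the invariant chain of MHC class II, rose, from 0.790 and 0.802 RPKM to 1.91 and 2.34 (adjusted p = 0.00603). None of 10 tested proteasome genes passed. The shares called, 1 of those 8 heavy chains and 1 of the 8 loading genes, were near the 13.1% of all genes. The median log2 changes were 0.0941 for the 10 heavy chains, H2-Q2 and Cd1d1 included, 0.212 for peptide loading and -0.044 for the proteasome. With Med26 siRNA, H2-Bl fell by 0.49 (adjusted p = 0.013) among the heavy chains and Cd74 rose by 0.48 (adjusted p = 0.0264).

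Interferon transcripts were at or near 0. Ifnb1, Ifna2, Ifna4, Ifng, Ifnl2 and Ifnl3 were listed at 0 in all 10 libraries, and Ifnk reached 0.208 RPKM. The receptor chains were present: in NPC controls Ifnar1 was at 5.74 and 5.21 RPKM, Ifnar2 at 5.65 and 5.50 and Ifngr1 at 6.13 and 5.69. The 5 genes of this list that were tested are all receptor chains, and none passed with Cbx3 siRNA. The transcription factor Irf7 stayed at or under 0.211 RPKM, and Nlrc5, an activator of class I genes, at or under 0.280.

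Of 15 tested interferon signalling genes, 4 rose with Cbx3 siRNA in NPCs and none fell, or 26.7% called against 13.1% of all genes, with a median of 0.188. The 15 include 2 that reached the filter only through Cbx3 siRNA libraries, neither of them called. Stat3, which also relays leukemia inhibitory factor, rose by 0.85 ± 0.088 (adjusted p = 0.00403), and Socs1, an inhibitor of JAK kinases, by 0.47 ± 0.090 (adjusted p = 0.022). Irf1, a transcription factor of class I and immunoproteasome genes, went from 17.4 and 18.4 RPKM to 21.8 and 22 with Cbx3 siRNA (0.28 ± 0.064, adjusted p = 0.0387) and to 13.3 and 14.4 with Med26 siRNA, where it fell by 0.35 (adjusted p = 0.0215). Irf1 was therefore on opposite sides of the controls with the siRNAs, and the direct difference was 0.63 ± 0.064 (adjusted p = 0.00326). Stat3 rose with both siRNAs (0.65 ± 0.088 with Med26 siRNA, adjusted p = 0.00953).

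Among 48 interferon-stimulated genes 21 were tested, and 25 were under 1 RPKM in every library. With Cbx3 siRNA 6 passed upward and 1 downward, where 7.8% and 5.33% of all genes did, with a median of 0.206. Gbp3 and Oasl2, among the 6, reached the filter of 1 RPKM in 2 libraries only through Cbx3 siRNA libraries, so they had to be high there, and 4 of the other 19 rose. The median of 0.206 includes Gbp3 and Oasl2. Gbp2, a GTPase that acts on intracellular microbes, is shown with its response element match on the opposite strand, 59 bases before the start, in RefSeq GRCm38.p6 chr3:142620594-142620623, plus strand.
Gbp2: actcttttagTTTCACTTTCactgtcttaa
Gbp2 was at 8.38 and 9.33 RPKM in NPC controls, 20.3 and 21.3 with Cbx3 siRNA and 12 and 13 with Med26 siRNA. It followed the order of Cxcl10 and H2-D1, with no overlap, and rose by 1.14 ± 0.076 with Cbx3 siRNA (adjusted p = 0.00112) and by 0.46 ± 0.076 with Med26 siRNA (adjusted p = 0.0168). Irgm1, a GTPase of the same defence, rose by 0.58 with Cbx3 siRNA (adjusted p = 0.0086) and fell by 0.34 with Med26 siRNA (adjusted p = 0.0391). Ifi35 rose by 0.33 and fell by 0.61 in the same comparisons, with adjusted p of 0.0304 and 0.00656. Shisa5 also rose with Cbx3 siRNA, and Ifitm2 was the one that fell. Gbp3 was at 0.543 and 0.789 RPKM in NPC controls and 1.46 in both libraries with Cbx3 siRNA. Mx1, an antiviral GTPase used to mark type I interferon exposure, was listed at 0 in all 10 libraries. Rsad2, Ifit1, Ifit3, Oas2 and Usp18, of the same kind, did not pass 0.293 RPKM in any library. The Gbp and Oas families have close paralogs that can share reads.

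With Med26 siRNA, 2 of the 21 tested interferon-stimulated genes rose and 4 fell, where 6.9% of all genes rose and 6.46% fell, with a median of -0.175. In the direct comparison 10 of the 21 were higher with Cbx3 than with Med26 siRNA and 2 were lower, where 10.4% and 7.87% of all genes were, with a median of 0.455 against 0.00976 for all genes. The 21 include Gbp3 and Oasl2, which had to be high with Cbx3 siRNA to be tested. Gbp3 is among the 10, so the count and the median depend in part on the filter. Neither was computed without these genes. Ifi35 differed by 0.94 ± 0.071 (adjusted p = 0.00139) and Irgm1 by 0.92 ± 0.079 (adjusted p = 0.00221).

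Of 10 tested genes of nucleic acid sensing, 2 reached the filter only through Cbx3 siRNA libraries and are described without a test. Sting1, the adaptor of cytosolic DNA sensing, was at 0.267 and 0.395 RPKM in NPC controls and 0.941 and 1.57 with Cbx3 siRNA, and Tlr2, a receptor for bacterial lipoproteins, at 0.729 and 0.617 against 1.60 and 1.46. Of the other 8, 2 rose with Cbx3 siRNA and none fell, where 7.8% and 5.33% of all genes did. Ddx58, the RNA sensor RIG-I, went from 1.73 and 1.86 to 2.92 and 3.38 RPKM (adjusted p = 0.0114). Eif2ak2, a kinase that binds viral RNA, rose by 0.46 (adjusted p = 0.0298). Eif2ak2 also rose with Med26 siRNA, by 0.42 (adjusted p = 0.0387), and differed by 0.036 between the siRNAs (adjusted p = 0.831). Aim2 fell with Med26 siRNA by 0.39 (adjusted p = 0.0261). No other gene of the list passed with Med26 siRNA, where 6.9% of all genes rose and 6.46% fell. Of 12 tested NF-kappaB genes, 5 rose and none fell, or 41.7% called against 13.1% of all genes, with a median of 0.298. Nfkb2, a precursor subunit, went from 7.21 and 6.86 RPKM to 12.5 and 12.5 (0.75 ± 0.069, adjusted p = 0.00277), and Nfkbia, an inhibitor that NF-kappaB itself induces, from 9.34 and 10.1 to 14.7 and 13.8 (adjusted p = 0.0104). With Med26 siRNA 5 of the 12 rose as well, against 6.9% of all genes, with a median of 0.332, among them Nfkb2 by 0.51 and Nfkbia by 0.51. In the direct comparison none of the 12 was higher with Cbx3 siRNA and 2 were lower, where 10.4% and 7.87% of all genes were. Of 5 tested chemokines other than Cxcl10, Ccl2 and Ccl20 reached the filter only through Cbx3 siRNA libraries, and Ccl20 was at 0.0232 and 0.181 RPKM in NPC controls and 1.34 and 1.01 with Cbx3 siRNA. Of the other 3, Cxcl16 rose with Cbx3 siRNA by 0.94 (adjusted p = 0.0027) and with Med26 siRNA by 0.82 (adjusted p = 0.00498). Among all genes, 7.8% rose with Cbx3 siRNA and 6.9% with Med26 siRNA.

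**Figure D5:**
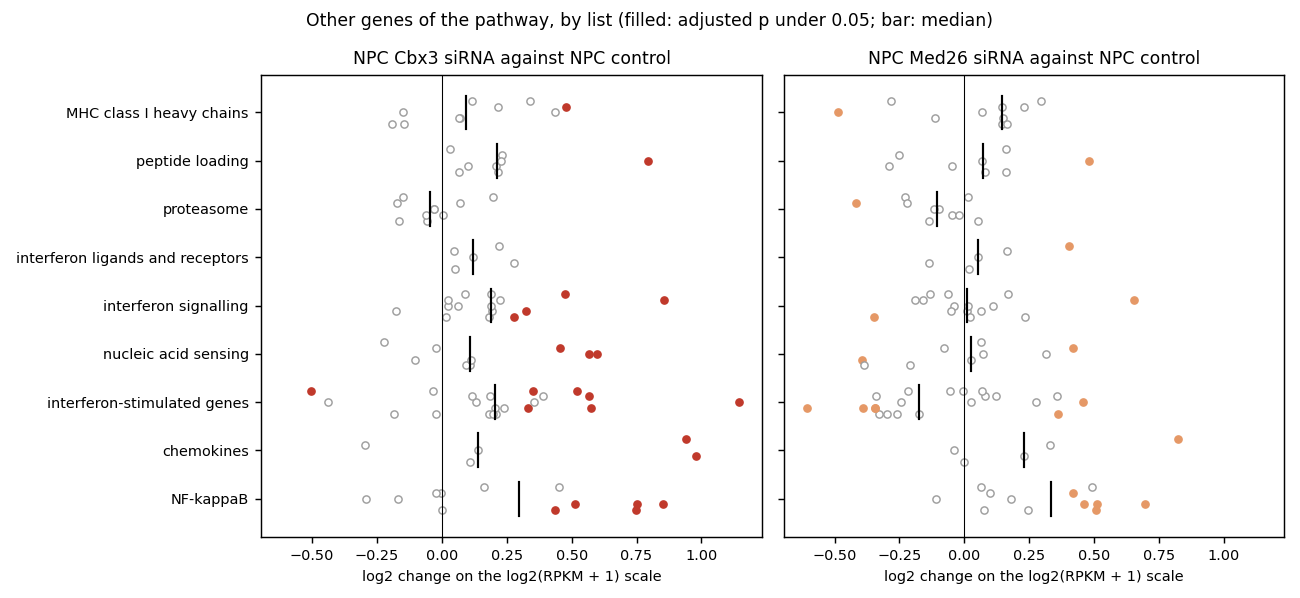
Log2 change of each tested gene of the other pathway lists, except Sting1, which is not drawn. Changes are for NPCs with Cbx3 or Med26 siRNA against control, on the log2(RPKM + 1) scale. Filled points have an adjusted p under 0.05, and bars are medians of the genes drawn. Tlr2, Gbp3, Oasl2 and Ccl20, filled for Cbx3 siRNA, reached the filter only through Cbx3 siRNA libraries. Interferon-stimulated genes, Gbp3 and Oasl2 included, have a median of 0.206 with Cbx3 siRNA and -0.175 with Med26 siRNA. No median was computed without these genes. The NF-kappaB list has medians of 0.298 and 0.332.

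Across the 10 libraries the members did not share a single pattern. H2-D1, H2-K1, Tapbp and Psmb8 ran close together, with Pearson r of log2(RPKM + 1) between 0.9 and 0.98 for each pair. Against each of them, r was 0.81 to 0.97 for Tap1, 0.84 to 0.94 for Cxcl10 and 0.43 to 0.64 for Psmb9. B2m did not follow H2-D1, H2-K1, Tapbp and Psmb8, with r between 0.19 and 0.49. Ifitm3 ran against them, with r from -0.84 to -0.76. These values describe 10 libraries of 5 groups that share controls and cell type. Of all genes tested, the nearest to H2-K1 were Nrip3 (r = 0.996), Septin8 and Gbp2 (r = 0.995 for each). Nearest to Psmb8 was Alox15 (r = 0.996), to Tap1 Emilin3 (r = 0.996), to Tapbp Eps8l2 (r = 0.994), to Cxcl10 Xpo7 (r = 0.975) and to B2m Anxa5 (r = 0.979). For H2-D1 the nearest was a transcript without a gene symbol in the tables used here (r = 0.998), followed by Pea15a (r = 0.989). Whether that transcript shares reads with H2-D1 was not tested. Psmb9 was nearest to Polr1e (r = 0.974) and Ifitm3 to Pcsk1n (r = 0.962).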

How the data were processed

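Expression was measured by RNA-seq of bulk cultures in 10 libraries; the labels name Trizol extraction and a TruSeq RNA kit. The authors deposited RPKM values per RefSeq transcript; the submitters' processing notes name TopHat2 2.08 and build mm9, and no source used here gives the counting tool or strand setting. Of 35860 rows, 99.07% were matched to a symbol, and the row with the highest mean RPKM stood for each gene. Low RPKM values fell near whole steps (64.6% to 70.3% within 0.1 reads), too few to recover counts, so no count test was run.

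The 11956 genes that reached 1 RPKM in 2 or more of the 10 libraries were fitted as log2(RPKM + 1), a scale that understates the change of low genes, with limma 3.58.1 in R 4.3.3 (intensity trend, two-sided, Benjamini-Hochberg at 0.05). NPC comparisons used the 6 NPC libraries, and those with ESCs all 10, without a replicate block. The fit was tested on simulated data. The members and gene lists were chosen with earlier results of these data known, as was the use of the 6-library fit. Named genes were the members, the targets, the regulators, the genes of each list with the largest called changes (up to 4 for Cbx3 siRNA, 2 for Med26 siRNA and 2 between control cells) and, for each member, those with the highest Pearson r; Ifitm2, Oasl2, Cd68, Psmb5, Cxcl9, Cxcl11, Mx1 and the other low interferon-stimulated genes were named after their values were seen. Alternatives were other pseudocounts, filters, scalings, row choices, fits, a replicate block and leaving out each library. Promoter sequences are RefSeq's, build GRCm38.p6, which matched all 10 members; motifs were searched on both strands. The values of 1 listed gene are not reported here.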

Additional observations from a re-analysis of the deposited data

How the results depend on the processing

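Under the alternatives run, no member's call reversed. For Cbx3 siRNA against control in NPCs, the 7 members called became 3 with no filter on low values and 0 in the fit of all 10 libraries, and ranged from 2 to 6 with 1 library left out. For Med26 siRNA against control, 1 became 2 with median scaling, 3 with a replicate block and 0 in the fit of all 10 libraries, and ranged from 0 to 1 with a library left out. For Cbx3 against Med26 siRNA, 7 became 3 with no filter and 0 in the fit of all 10 libraries, and ranged from 1 to 4. Between NPC and ESC controls, 3 became 8 with a replicate block and 0 in a fit of the 4 control libraries, and ranged from 1 to 7. In ESCs, and for the difference between cell types, the count was 0 under every alternative. Other than where 1 library was left out, Psmb9 also lost its call at pseudocounts of 0.1 and 0.5 (adjusted p 0.0541 and 0.0506), with either other filter (0.0773 and 0.0562) and with summed rows (0.0581). The fit of all 10 libraries takes in the wider ESC spread (median residual SD 0.156, against 0.0827 in the 6 NPC libraries).

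Counts over all genes moved likewise. The 1570, 1597 and 2185 genes called in the 3 NPC comparisons, in the order above, became 876, 611 and 1325 with no filter, 1, 15 and 120 in the fit of all 10 libraries, and 3495, 3705 and 4234 with a replicate block. With a library left out they ranged from 391 to 1063, 164 to 1148 and 560 to 1672. The 1918 genes between control cells became 6912 with the block and 47 in the fit of the 4 control libraries, and ranged from 185 to 2699. In ESCs the count of 0 became 813 with the block, 55 with the block in the 4 ESC libraries and 2 with no filter, and ranged from 0 to 1. For the difference between cell types 0 became 6 with the block and 4 with no filter. Same-numbered libraries deviated together between the ESC groups (r = 0.892) and among NPC groups (0.423 to 0.461) but not between cell types (-0.0685 to -0.0384), and the labels give no shared origin for a number. With the block, Med26 siRNA against control also called Cxcl10 (adjusted p = 0.00579) and Ifitm3 (0.0184), and Cbx3 against Med26 siRNA also called Tap1 (0.044). With 2 libraries a group, a group cut to 1 is assumed to vary like the others. Isg15, at 0 to 30 estimated reads, is too low for a firm difference.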
